A study of Mus musculus with 412 samples.

Results

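The expression of 10 purine receptor genes was examined in single sensory neurons that innervate the mouse colon. They comprised 6 genes of the P2X family (P2rx2, P2rx3, P2rx4, P2rx5, P2rx6 and P2rx7) and 4 genes of the P2Y family (P2ry1, P2ry2, P2ry12 and P2ry14), each matched by its Ensembl identifier to 1 row of a table of 45513 genes. The neurons came from C57BL/6J mice and had been traced from the colon wall with Fast Blue, dissociated from thoracolumbar (TL) or lumbosacral (LS) dorsal root ganglia, cultured, picked by hand and sequenced 1 by 1 with the Smart-seq2 protocol. TL ganglia supply the colon through the lumbar splanchnic nerve and LS ganglia through the pelvic nerve. The table holds 167 TL and 158 LS neurons in 6 library plates, of which plate 1 held only TL neurons. The mice were healthy, and their age and the mouse behind each neuron are not given in the sources used here. TL and LS were therefore 1 sample each, so levels are described with no test, and the intervals below are exact Clopper-Pearson 95% intervals that cover counting error only. Where a count of 0 is said to allow a share, that limit is instead 3 neurons of the group's total, which is lower than the upper end of the exact interval.

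P2X receptors are channels that open when extracellular ATP binds, and they are built from 3 subunits. P2X3 subunits form channels alone or together with P2X2 subunits, and both forms are known from nociceptors that sense ATP released by stretched or damaged tissue. P2Y receptors are coupled to G proteins. P2Y1 and P2Y12 respond to ADP, P2Y2 to ATP and UTP, and P2Y14 to UDP sugars. Released nucleotides are broken down at the cell surface to adenosine, which acts on its own receptors.

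Levels are given as transcripts per 1000000 (TPM), which are scaled by gene length, and a neuron at 10 TPM or more of a gene is described here as expressing it. Between 416007 and 12058968 reads (median 2867071) had been assigned to genes in each neuron. The labelled cell type was checked by its markers: of 6 neuronal genes Tubb3, Uchl1, Snap25 and Prph were at 10 TPM or more in 100% of the neurons, Scn9a in 91.1% and Rbfox3 in 73.8%. RNA of other cells was also found. The summed level of 8 satellite glia markers ranged from 0.438 to 98796 TPM, with a median of 1989 TPM in TL and 203 TPM in LS neurons. Of the 32 neurons with the highest sums of glia and Schwann cell markers, 24 were TL and 8 were LS. The endothelial sum reached 21373 TPM in a single TL neuron, with a median of 1.24 TPM over all neurons. Of the macrophage list of 10 genes, 7 were below a mean of 1 TPM, and most of its sum came from C1qb (mean 36.1 TPM). The sum of 5 fibroblast markers reached 1866 TPM, with a median of 12.4 TPM. Most of it came from Dcn (mean 160 TPM), against means of 1.97 TPM for Col1a2, 1.80 for Lum, 0.363 for Col1a1 and 0.158 for Pdgfra.

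P2rx3 was the most abundant of the receptors and P2rx4 the most evenly spread. P2rx3 lies on the minus strand of chromosome 2 (GRCm38, 84998583 to 85037462) and was expressed by 238 of 325 neurons, or 73.2% (interval 68.1 to 78.0%). Its level ran from 0 in 43 neurons through a median of 43.3 TPM to a highest value of 953 TPM, with a mean of 90.2 TPM. P2rx4, the subunit of a channel found in neurons and in immune cells (chromosome 5, 122707544 to 122729738, plus strand), was expressed by 233 neurons (71.7%, interval 66.5 to 76.5%). Its middle range was narrow, from 8.75 TPM at the lower to 21.0 TPM at the upper quartile, and its highest value was 41.4 TPM. Neurons with P2rx4 held more detected genes than the others (medians 14119 and 10282.5) and a higher neuronal marker sum (14876 and 12603 TPM). For P2rx3 the medians were 13932 and 11840 detected genes. The part of this in the results for both genes below was not tested.

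P2rx2, the partner of P2rx3 (chromosome 5, 110339812 to 110343212, minus strand), was expressed by 112 neurons (34.5%, interval 29.3 to 39.9%) and was listed at 0 in 170. P2rx5 (chromosome 11, 73160421 to 73172685, plus strand) was expressed by 71 neurons (21.8%, interval 17.5 to 26.7%), with a median of 3.50 TPM and a highest value of 136 TPM. P2rx6 and P2rx7 were sparse. P2rx6, a subunit that forms channels mainly with other P2X subunits, was expressed by 19 neurons (5.85%, interval 3.56 to 8.98%) and P2rx7, an ATP channel best known from immune and glial cells, by 16 neurons (4.92%, interval 2.84 to 7.87%).

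Among the P2Y genes, P2ry2 (chromosome 7, 100996568 to 101012866, minus strand) was expressed by the most neurons, 71 of 325 (21.8%, interval 17.5 to 26.7%). P2ry1 (chromosome 3, 61002795 to 61008982, plus strand) was expressed by 29 neurons (8.92%, interval 6.06 to 12.6%), in which its median reached 30.2 TPM and its highest value 270 TPM. P2ry12 was expressed by 13 neurons (4.00%, interval 2.15 to 6.74%). P2ry14 passed 10 TPM in 1 neuron (0.308%, interval 0.00779 to 1.70%), although 143 neurons held at least 1 read of it.

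Ordered by mean TPM, P2rx3 (90.2) was followed by P2rx4 (15.2), P2rx2 (14.4), P2ry1 (8.43), P2rx5 (7.41), P2ry2 (6.22), P2rx6 (2.14), P2ry12 (1.95), P2rx7 (1.94) and P2ry14 (0.431). Only the step from P2rx3 to P2rx4 was larger than the spread between plates, with plate means of 72.5 to 125 TPM and 10.4 to 18.0 TPM for the 5 plates with both segments. All other neighbours in this order had overlapping plate means. Counting by strand is not given in the sources used here, and exons of 4 members overlap a gene on the opposite strand. The longest overlaps were 992 bases between P2ry1 and Gm37035 (mean 0.588 TPM) and 554 bases between P2rx6 and Slc7a4 (mean 48.1 TPM), so the level of P2rx6 in particular is uncertain, while P2rx3 and Ssrp1 shared 51 bases and P2ry12 and Med12l 9 bases.

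**Figure D1:**
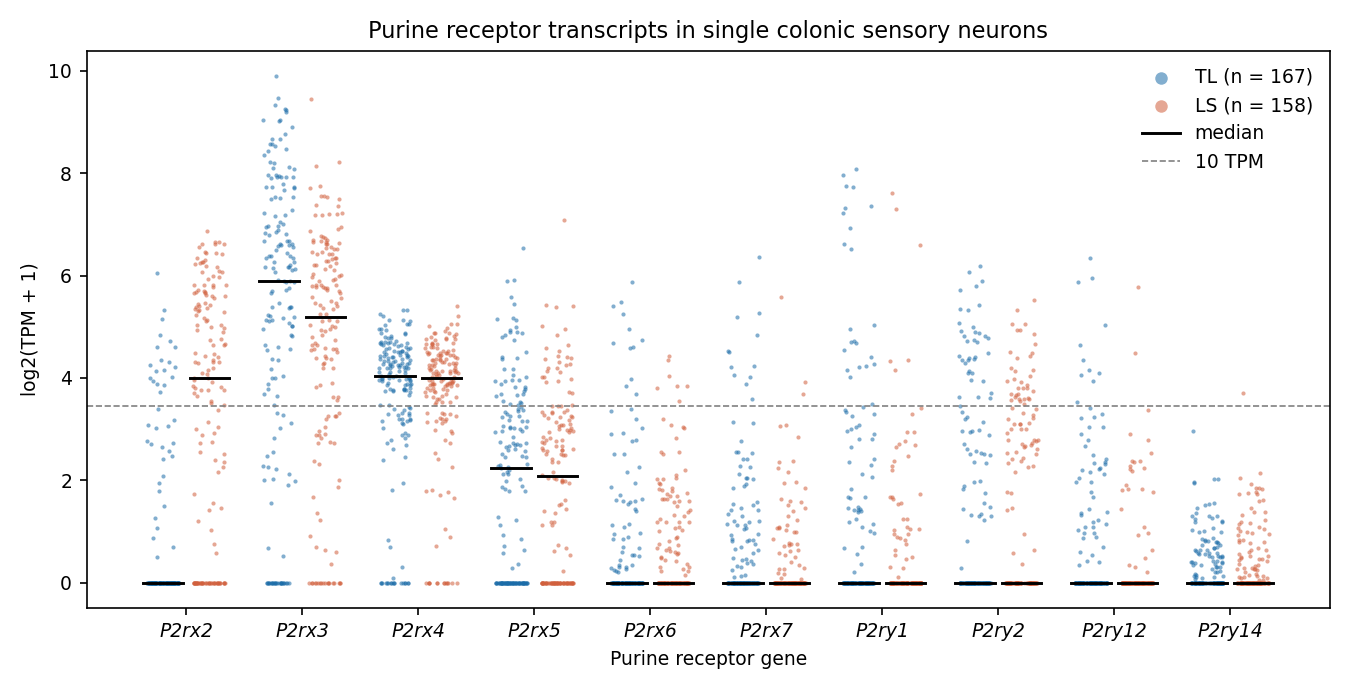
Level of each receptor in each neuron, as log2(TPM + 1), for 167 TL (blue) and 158 LS (orange) neurons; black bars are medians and the dashed line is 10 TPM. P2rx2 has its median at 0 in TL and at 15.0 TPM in LS neurons, P2rx4 forms a compact band in both segments, and P2ry1 has a small group of neurons far above the rest.

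P2rx2 separated the segments. It ranged from 0 through a median of 0 to a highest value of 65.3 TPM in TL neurons, and from 0 through a median of 15.0 to 116 TPM in LS neurons. It was expressed by 19 of 167 TL neurons (11.4%, interval 6.99 to 17.2%) and 93 of 158 LS neurons (58.9%, interval 50.8 to 66.6%). The ranges of the segments overlapped, since 43 LS neurons were listed at 0. Mean levels were 3.11 TPM in TL and 26.4 TPM in LS, a ratio of 8.49, and in the 5 plates that held both segments the ratio lay between 6.43 and 13.3. The share lay between 4.55 and 18.9% in TL and between 52.4 and 64.9% in LS neurons of these plates, so that no TL plate reached the lowest LS plate. Over all neurons P2rx2 had a rank correlation of 0.40 with the macrophage sum (median 19.9 TPM in TL, 44.7 TPM in LS) and -0.47 with the sum of myelinating Schwann cell markers (median 1062 and 467 TPM). Most of the Schwann cell sum came from Pmp22 (mean 740 TPM), which was at 10 TPM or more in 95.4% of neurons. The correlation was 0.36 with the endothelial, 0.28 with the fibroblast and -0.14 with the satellite glia sum. The part of these sums in the result was not tested.

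**Figure D2:**
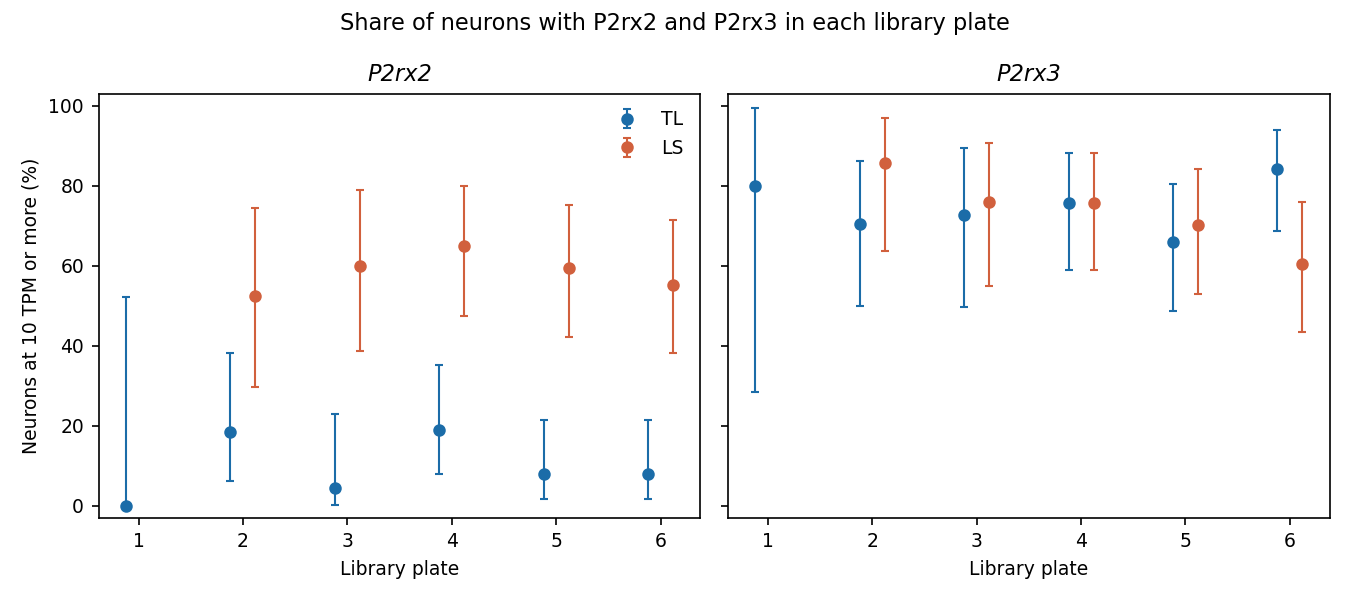
Share of neurons at 10 TPM or more of P2rx2 (left) and P2rx3 (right) in each library plate, in percent, for TL (blue) and LS (orange) neurons; bars are 95% Clopper-Pearson intervals and plate 1 has 5 TL neurons and no LS neuron. For P2rx2 the LS plates lie between 52.4 and 64.9% and the TL plates with both segments between 4.55 and 18.9%, whereas for P2rx3 the plates of both segments overlap.

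P2rx3 was expressed by nearly equal shares of both segments but reached higher levels in TL. The share was 74.3% in TL (interval 66.9 to 80.7%) and 72.2% in LS (interval 64.5 to 79.0%). The level ran from 0 through a median of 58.4 to 953 TPM in TL neurons and from 0 through 35.5 to 700 TPM in LS neurons. The mean was 122 TPM in TL and 56.9 TPM in LS, 2.14 times as high in TL, with the same direction in each of 5 plates. On the scale of mean log2(TPM + 1) the LS level was 0.58 below the TL level, which is under the limit of 1 that corresponds to 2-fold. The ratio of means also came under 2-fold when plate 5 (log2 ratio -0.87) or plate 6 (-0.97) was left out, and when only neurons with Mrgprd and Cbln2 below 10 TPM were kept (-0.79), a restriction chosen after the data were seen.

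By the same rule of a 2-fold ratio of means, a mean of at least 1 TPM in 1 group and the same direction in every plate with 3 or more neurons of both groups, 9 of the 10 receptors could be compared, P2ry14 being too low. P2rx2 was the 1 receptor past the limit with the higher mean in LS, where the rule was met by 4.52% of 16184 genes. P2rx3, P2rx7, P2ry1 and P2ry12 were past the limit with the lower mean in LS, where it was met by 3.47% of all genes. P2ry1, the ADP receptor, had means of 12.8 TPM in TL and 3.79 TPM in LS and was expressed by 23 TL neurons (13.8%, interval 8.94 to 19.9%) and 6 LS neurons (3.80%, interval 1.41 to 8.08%). It did not meet the rule among neurons with Mrgprd and Cbln2 below 10 TPM, where its means were 2.81 and 0.81 TPM, because 1 of 5 plates had the opposite direction (ratio 1.03), while the ratio of means was 3.47, against 3.38 over all neurons.

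P2rx7 and P2ry12 moved with glial RNA. P2rx7 had means of 2.89 TPM in TL and 0.932 TPM in LS, and P2ry12 of 2.91 and 0.937 TPM. In the 16 neurons that expressed P2rx7 the summed satellite glia markers ranged from 4385 to 98796 TPM with a median of 45415 TPM, against a median of 651 TPM in the other 309 neurons. In the 13 neurons that expressed P2ry12 they ranged from 8254 to 98796 TPM with a median of 44983 TPM, against 677 TPM in the other 312 neurons. Over all 325 neurons the rank correlation with the glial sum was 0.47 for P2rx7 and 0.52 for P2ry12, as a description of points that share a library and its depth. The summed macrophage markers had a median of 20.9 TPM in neurons with P2ry12 and 33.1 TPM in the others, and of 30.4 and 32.7 TPM for P2rx7. Of the 10 macrophage genes, Csf1r, C1qa, C1qc, Mrc1 and Tyrobp were listed at 0 in all 13 neurons with P2ry12. In all 16 neurons with P2rx7 these were C1qa, C1qc, Ptprc and Tyrobp, and in both cases the other genes of the list were found. The genes listed at 0 had means below 1 TPM over all neurons as well, so their zeros do not set these neurons apart. Without the 32 neurons of highest glial and Schwann cell sum, P2ry12 was at 10 TPM or more in 0 of 293 neurons, which allows a share of up to 1.02%, and P2rx7 in 1.02% of neurons, and neither was past the limit between the segments any longer (log2 ratios -0.81 and -0.96). Neurons with these receptors also held fewer detected genes, with medians of 8612 against 13773 for P2ry12 and 10142 against 13776 for P2rx7. Their summed neuronal markers had medians of 6114 against 14508 TPM and 8089 against 14527 TPM, and their summed fibroblast markers 42.3 against 9.27 TPM and 48.4 against 9.69 TPM. The part of glial RNA, detected genes and other cells in these levels was not tested.

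P2rx4, P2rx5, P2rx6 and P2ry2 were not past the limit. P2rx4 had means of 15.4 TPM in TL and 15.0 TPM in LS and was expressed by 69.5% (interval 61.9 to 76.3%) and 74.1% (interval 66.5 to 80.7%). P2rx5 was expressed by 25.1% of TL (interval 18.8 to 32.4%) and 18.4% of LS neurons (interval 12.7 to 25.3%), with means of 7.84 and 6.97 TPM. P2ry2 was expressed by 21.6% (interval 15.6 to 28.6%) and 22.2% (interval 15.9 to 29.4%), with means of 6.95 and 5.45 TPM. P2rx6 had means of 2.74 TPM in TL and 1.51 TPM in LS, and its direction changed between plates.

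The receptors were then described by 3 genes that mark neuron subtypes in the study. Gfra3, the receptor for the growth factor artemin and a marker of peptidergic neurons, was at 10 TPM or more in 183 neurons (100 TL, 83 LS). Mrgprd, a G protein-coupled receptor that marks non-peptidergic neurons, passed this level in 17 neurons (15 TL, 2 LS), and Cbln2, a secreted synaptic protein that marks a neurofilament subtype, also in 17 neurons (12 TL, 5 LS). The groups are ranges of a level and not cell types. Between 5 and 20 TPM lay 6 neurons for Gfra3, 2 for Mrgprd and 2 for Cbln2, and 3 neurons passed 10 TPM of both Gfra3 and Mrgprd, 1 of both Gfra3 and Cbln2, and 0 of both Mrgprd and Cbln2.

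P2ry2, the ATP and UTP receptor, was found mainly outside the Gfra3 neurons. It was expressed by 12 of 183 Gfra3 neurons (6.56%, interval 3.43 to 11.2%) and 59 of 142 neurons without Gfra3 (41.5%, interval 33.3 to 50.1%). The same was seen in both segments, with 8.0 and 41.8% in TL and 4.82 and 41.3% in LS. Its mean was 2.27 TPM with Gfra3 and 11.3 TPM without, 4.99 times as high, and between 2.00 and 10.7 times as high in 5 plates. Among the 112 neurons below 10 TPM of all 3 markers, P2ry2 was expressed by 51.8% (interval 42.1 to 61.3%).

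P2ry1 and P2rx6 were also lower with Gfra3. P2ry1 had a mean of 1.20 TPM in Gfra3 neurons and 17.8 TPM in the others, and was expressed by 3 of 183 (1.64%, interval 0.339 to 4.72%) and 26 of 142 (18.3%, interval 12.3 to 25.7%). Of these 26 neurons, 15 were Cbln2 neurons, a group with a mean of 126 TPM of P2ry1. P2rx6 had means of 0.630 and 4.10 TPM and was expressed by 2 (1.09%, interval 0.133 to 3.89%) and 17 neurons (12%, interval 7.13 to 18.5%). P2rx3 was expressed by 72.7% of Gfra3 neurons and 73.9% of the others, while its mean was 60.0 against 129 TPM. The 17 Mrgprd neurons, of which 3 passed 10 TPM of Gfra3, had a mean of 454 TPM of P2rx3. The Gfra3 groups were not compared without the Mrgprd and Cbln2 neurons, so the part of those neurons in these means was not tested. The median fibroblast sum was 53.4 TPM with Gfra3 and 1.92 TPM without, and the median macrophage sum 53.9 and 15.5 TPM. Over all neurons these sums came mostly from Dcn and C1qb, and their part in these results was not tested. In all, 4 of the 9 receptors that could be compared (P2rx3, P2rx6, P2ry1 and P2ry2) were past the limit with the lower mean in Gfra3 neurons, against 5.26% of 16204 genes. With the higher mean there were 0, against 5.37%. Within TL neurons P2rx3 was not past the limit (means 82.1 and 181 TPM), because 1 of 5 plates had the opposite direction, and over both segments its log2 ratio came within the limit without plate 5 (-0.76) or plate 6 (-0.96). Within LS neurons P2rx6 was not past the limit (means 0.629 and 2.48 TPM), because 1 of 5 plates had the opposite direction (ratio 1.13).

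P2rx2 differed between the segments whether or not Gfra3 was present. In Gfra3 neurons it was expressed by 16.0% of TL (interval 9.43 to 24.7%) and 67.5% of LS (interval 56.3 to 77.4%), with means of 3.64 and 32.8 TPM. In neurons without Gfra3 the shares were 4.48% (interval 0.933 to 12.5%) and 49.3% (interval 37.6 to 61.1%), with means of 2.33 and 19.4 TPM. The direction was the same in all 5 plates in both cases. P2rx4 was the receptor with the highest share in Gfra3 neurons, 79.2% (interval 72.6 to 84.9%), against 62.0% (interval 53.5 to 70.0%) without Gfra3.

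Mrgprd neurons carried the highest P2rx3 levels. The 17 neurons ranged from 0 through a median of 476 to 953 TPM, and 15 of them expressed P2rx3 (88.2%, interval 63.6 to 98.5%). Their mean was 454 TPM, against 70.1 TPM in the other 308 neurons, a ratio of 6.48 that lay between 5.24 and 8.42 in the 3 plates with enough neurons. The TL neurons alone gave 468 and 87.6 TPM. Of the 2 LS neurons, 1 had 700 TPM of P2rx3 and 1189 TPM of Mrgprd. The other had 2.66 TPM of P2rx3 at 11.9 TPM of Mrgprd, and also 53.8 TPM of P2ry12.

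P2rx5 and P2rx6 were low in Mrgprd neurons. P2rx5 was expressed by 0 of 17, which allows a share of up to 17.6%, and its highest value was 5.65 TPM, with a mean of 1.06 TPM against 7.77 TPM in the others. P2rx6 had a highest value of 0.594 TPM and means of 0.0635 and 2.26 TPM. P2rx2 had means of 5.25 and 14.9 TPM, but within TL neurons the values were 3.07 and 3.11 TPM. P2rx3 was the 1 receptor past the limit with the higher mean in Mrgprd neurons, against 5.65% of 16331 genes, and P2rx2, P2rx5 and P2rx6 were past it with the lower mean, against 15.7%. The direction of P2rx2 turned on the deposited scale, where its log2 ratio was 0.44.

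Cbln2 neurons showed a different set. P2ry1 ranged from 0 through a median of 147 to 270 TPM in the 17 Cbln2 neurons and was expressed by 15 of them (88.2%, interval 63.6 to 98.5%). In the other 308 neurons it was expressed by 14 (4.55%, interval 2.51 to 7.51%), with a median of 0 and a highest value of 96.6 TPM. The means were 126 and 1.95 TPM, a ratio of 64.7 that was 57.0 and 143 in the 2 plates with enough neurons. In the 5 LS neurons with Cbln2, P2ry1 was at 0, 19.3, 95.8, 157 and 194 TPM, the neuron at 0 having the lowest Cbln2 level, 25.2 TPM, and 20.3 TPM of P2rx2. The 15 neurons with both genes had a median of 157 TPM of P2ry1, and the 14 neurons with P2ry1 but not Cbln2 a median of 18.7 TPM.

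P2rx3 was nearly absent from Cbln2 neurons. Its highest value there was 12.7 TPM, and 1 of 17 neurons expressed it (5.88%, interval 0.149 to 28.7%), against 237 of 308 others (76.9%, interval 71.8 to 81.5%), with means of 2.24 and 95.0 TPM. P2rx2 had means of 1.20 and 15.2 TPM and P2ry2 of 0.870 and 6.52 TPM, while P2ry12 was listed at 0 in all 17 Cbln2 neurons. Within TL neurons the means were 0 and 3.35 TPM for P2rx2 and 0.196 and 7.48 TPM for P2ry2. P2rx2 was expressed by 0 of the 12 TL neurons with Cbln2, which allows a share of up to 25.0%. The part of the segments in the P2rx2 means over all neurons was not tested. P2rx7 had means of 0.288 and 2.03 TPM, but the ratio was 0.996 in the 1 of 2 plates that gave a value. P2rx4 was expressed by 12 of 17 (70.6%, interval 44.0 to 89.7%) and 71.8% of the others. P2ry1 was the 1 receptor past the limit with the higher mean, against 6.0% of 16090 genes, and P2rx2, P2rx3, P2rx7, P2ry2 and P2ry12 were past it with the lower mean, against 24.7%. The median satellite glia sum was 82.8 TPM in Cbln2 neurons and 1197 TPM in the others, and without the 32 neurons of highest glial and Schwann cell sum P2rx7 and P2ry12 were not past the limit.

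**Figure D3:**
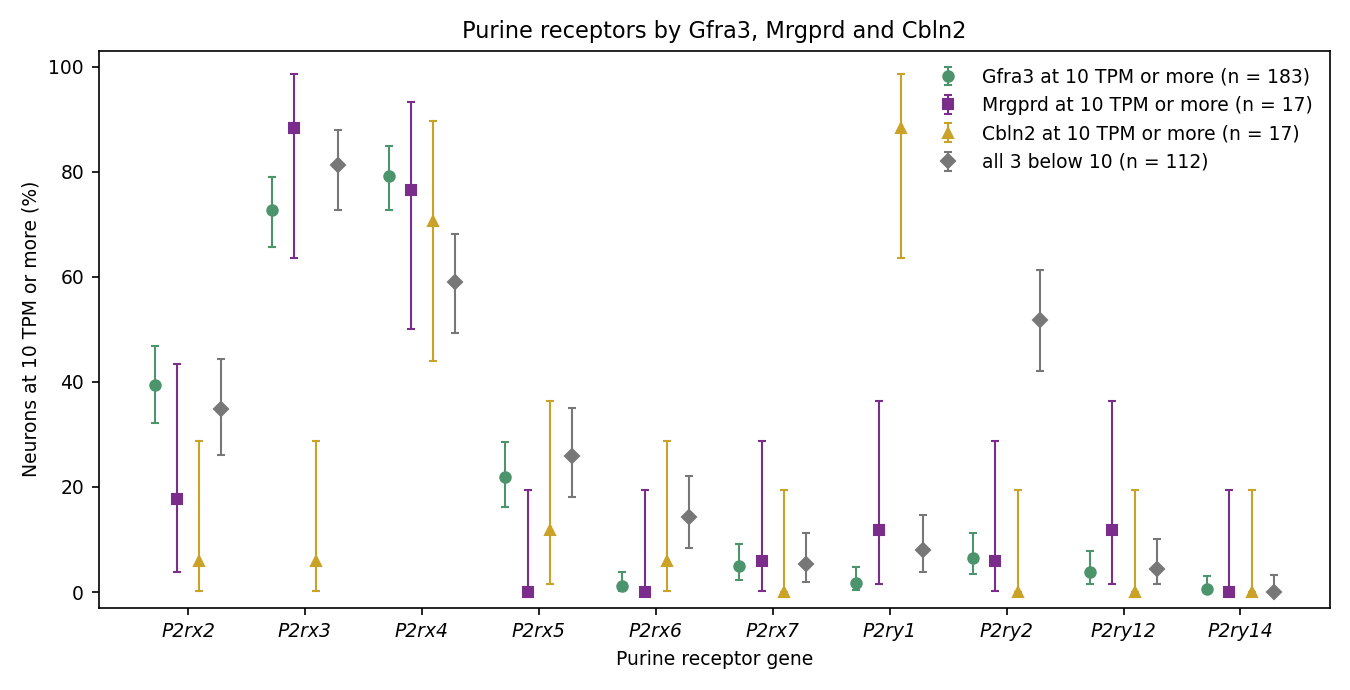
Share of neurons at 10 TPM or more of each receptor, in percent, with 95% Clopper-Pearson intervals, in neurons with Gfra3 (n = 183), Mrgprd (n = 17) or Cbln2 (n = 17) and in neurons below 10 TPM of all 3 (n = 112). P2ry1 stands at 88.2% in Cbln2 neurons, P2rx3 at 5.88% there and at 88.2% in Mrgprd neurons, and P2ry2 at 51.8% in neurons without the 3 markers.

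Most neurons expressed several purine receptors. At least 2 P2X genes were at 10 TPM or more in 240 neurons (73.8%, interval 68.7 to 78.5%), and 0 of the 6 in 18 neurons (5.54%). For the P2Y genes, 222 neurons (68.3%, interval 62.9 to 73.3%) expressed none, 92 expressed 1 and 11 expressed 2. The commonest sets were P2rx3 with P2rx4 alone, in 41 TL and 17 LS neurons, and P2rx2 with P2rx3 and P2rx4, in 11 TL and 41 LS neurons. None of the 10 receptors reached 10 TPM in 6 TL and 4 LS neurons.

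The subunits of the P2X2 and P2X3 channels were found together mainly in LS neurons. Both genes were expressed by 17 TL neurons (10.2%, interval 6.04 to 15.8%) and 74 LS neurons (46.8%, interval 38.9 to 54.9%). P2rx3 without P2rx2 was the largest class in TL, with 107 neurons (64.1%, interval 56.3 to 71.3%), and was found in 40 LS neurons (25.3%, interval 18.7 to 32.8%). P2rx2 without P2rx3 was found in 2 TL and 19 LS neurons, and 18 of these 19 expressed Gfra3. In LS, P2rx2 was expressed by 64.9% of neurons with P2rx3 (interval 55.4 to 73.6%) and 43.2% of those without (interval 28.3 to 59.0%), and these intervals overlapped. The rank correlation of both levels over neurons was 0.11 in TL (n = 167) and 0.21 in LS (n = 158).

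**Figure D4:**
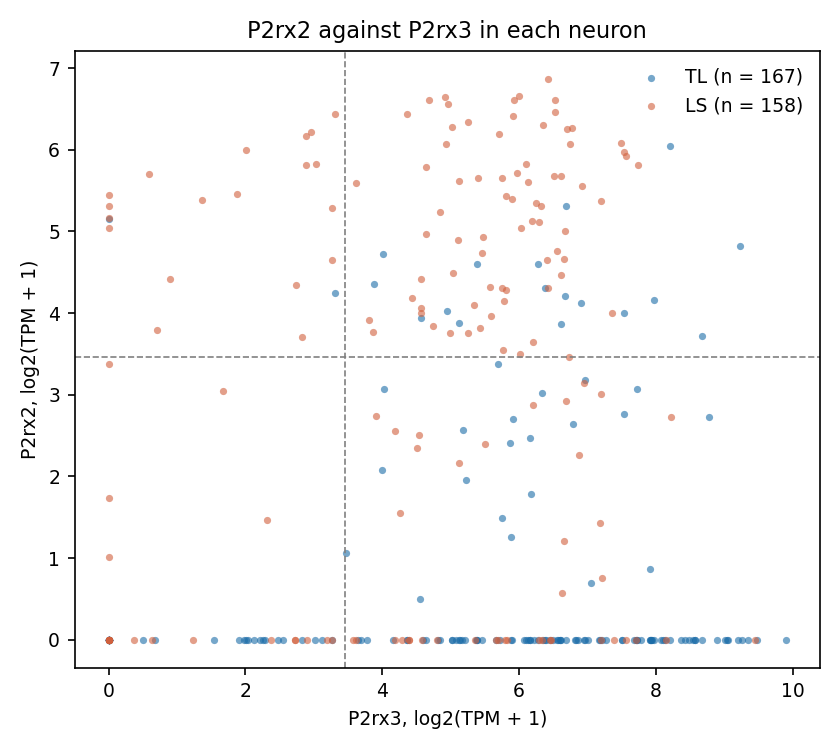
Level of P2rx2 against P2rx3 in each neuron, as log2(TPM + 1), for 167 TL (blue) and 158 LS (orange) neurons; dashed lines are 10 TPM. The upper right field holds 74 LS and 17 TL neurons, and the lower right field, with P2rx3 alone, holds 107 TL and 40 LS neurons.

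The pair found together most often was P2rx3 with P2rx4, in 181 neurons (55.7%), with 56.3% in TL and 55.1% in LS. P2ry1 and P2rx2 were expressed together by 1 neuron. In TL, where 23 of the 29 neurons with P2ry1 lay, P2rx2 was found in 0 of 23 (interval 0 to 14.8%) and in 13.2% of neurons without P2ry1 (interval 8.13 to 19.8%), and these intervals overlapped. In LS it was found in 1 of 6 neurons with P2ry1 (interval 0.421 to 64.1%) and 60.5% of those without (interval 52.3 to 68.4%). P2rx3 was found in 12 of 29 neurons with P2ry1 (41.4%, interval 23.5 to 61.1%) and 76.4% of those without. Of those 12, 11 were below 10 TPM of Cbln2. P2ry2 and P2rx3 were found together in 59 neurons, with a rank correlation of 0.30 over 325 neurons, and P2rx3 was expressed by 83.1% of neurons with P2ry2 (interval 72.3 to 91.0%) and 70.5% of those without (interval 64.4 to 76.0%), which overlapped.

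The receptors were next set beside sensory genes of the same neurons. P2rx2 was more frequent in LS neurons with Ntm, a marker of the pelvic peptidergic neurons, but was not confined to them. It was expressed by 41 of 48 neurons with Ntm, the cell adhesion protein neurotrimin (85.4%, interval 72.2 to 93.9%), all of them LS, and by 47.3% of LS neurons without Ntm (interval 37.7 to 57.0%). With Trpv1, the capsaicin-gated heat channel, P2rx2 was expressed by 71.1% of LS neurons (interval 61.8 to 79.2%) and without it by 27.3% (interval 15.0 to 42.8%). In TL the figures were 15.8% (interval 9.81 to 23.6%) and 0 of 47 neurons, which allows a share of up to 6.38%. No neuron expressed both P2rx2 and Fam19a1, a marker of a neurofilament subtype (0 of 40, which allows a share of up to 7.50%), or both P2rx2 and Ntrk3, the receptor for neurotrophin-3 (0 of 26, up to 11.5%). The share of P2rx2 was 34.5% over all neurons but 11.4% in TL neurons. These counts of 0 are not given by segment, and the part of the segments in them was not tested.

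P2rx3 was widespread across these classes. With Trpv1 its share was 74.4% (interval 68.3 to 79.8%) and without it 70.3% (interval 59.8 to 79.5%), so these did not differ beyond their intervals. It was highest beside Hpse, heparanase, a marker of pelvic neurofilament neurons, with 42 of 44 neurons (95.5%, interval 84.5 to 99.4%), and lower beside Smr2, a marker of a peptidergic subtype, with 10 of 24 (41.7%, interval 22.1 to 63.4%).

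P2ry2 and P2rx6 accompanied Piezo2, the mechanically gated channel of touch and stretch, and Asic3, an acid-sensing channel. P2ry2 was expressed by 60 of 145 neurons with Piezo2 (41.4%, interval 33.3 to 49.8%) and 6.11% of those without (interval 3.09 to 10.7%), and by 54.3% of neurons with Asic3 (interval 42.9 to 65.4%) and 11.1% without (interval 7.42 to 15.7%). The shares beside Asic3 were alike in the segments, 54.4% in TL and 54.2% in LS. P2ry2 was less frequent beside Trpa1, the irritant channel, with 7.06% (interval 3.70 to 12%) against 38.1% (interval 30.4 to 46.2%), and beside Tac1, which encodes substance P, with 14.1% (interval 10 to 18.9%) against 50.7% (interval 38.4 to 63.0%). Of the 19 neurons with P2rx6, 18 expressed Piezo2, 15 expressed Asic3 and 12 expressed Fam19a1.

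P2ry1 was found in all 10 neurons without Calca, the gene of calcitonin gene-related peptide, and in 6.03% of the 315 neurons with it (interval 3.67 to 9.26%). It was expressed by 14 of 26 neurons with Ntrk3 (53.8%, interval 33.4 to 73.4%) and 5.02% of those without (interval 2.83 to 8.14%). P2rx5 was more frequent beside Smr2, with 13 of 24 neurons (54.2%, interval 32.8 to 74.4%) against 19.3% (interval 15.0 to 24.2%), and beside Asic3, with 40.7% (interval 29.9 to 52.2%) against 15.6% (interval 11.3 to 20.7%). P2rx4 was more frequent beside Ret, the receptor tyrosine kinase of the glial cell line-derived neurotrophic factor family, with 77.6% (interval 72.1 to 82.5%) against 43.9% (interval 30.7 to 57.6%). The part of the number of detected genes, which was higher in neurons with P2rx4, was not tested. Trpv4 was at 10 TPM or more in no neuron, so no share could be given beside it.

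**Figure D5:**
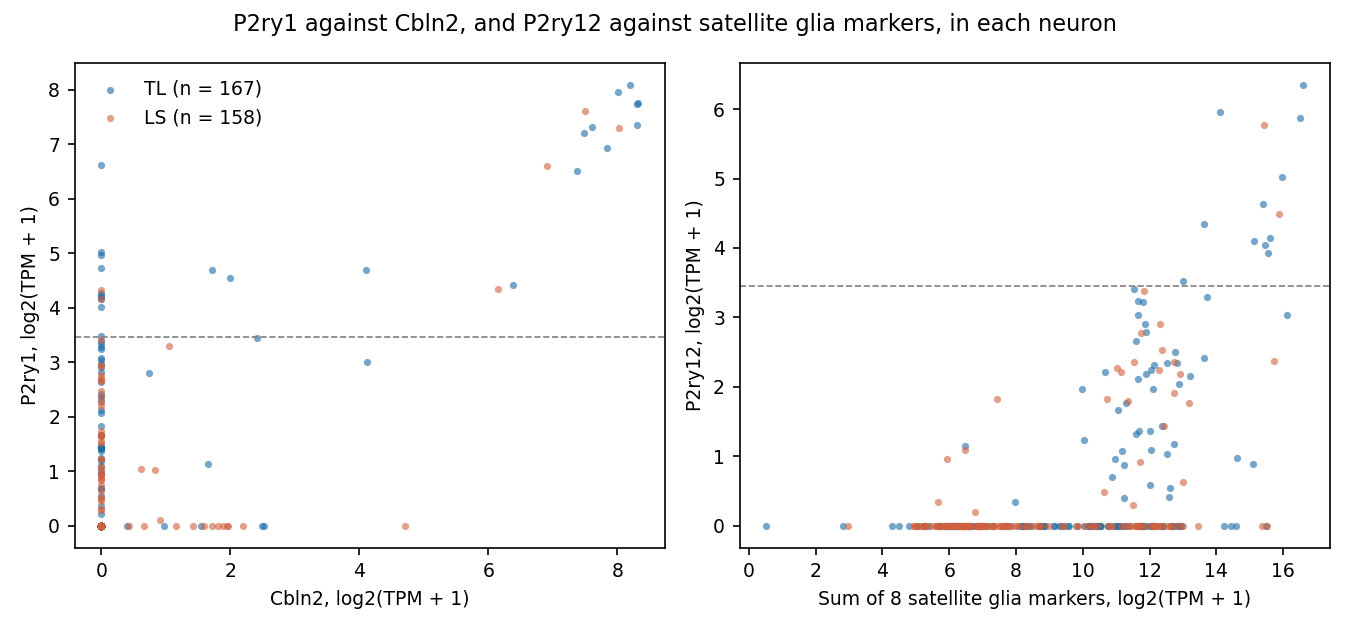
Left, P2ry1 against Cbln2; right, P2ry12 against the summed level of 8 satellite glia markers, as log2(TPM + 1), in 167 TL (blue) and 158 LS (orange) neurons; dashed lines are 10 TPM. The 15 neurons with both P2ry1 and Cbln2 lie at the upper right of the left panel, and the 13 neurons at 10 TPM or more of P2ry12 all have a glial sum of 8254 TPM or more.

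The genes whose levels ranked most like each receptor over all 325 neurons were sought among 11884 others that were expressed by at least 5% of neurons. For P2rx3 they were Scn10a (rho = 0.61) and Scn11a (0.55), which encode sodium channels of nociceptors, and also Ptprg (0.51) and Anxa2 (0.51). The value for Scn10a lay between 0.36 and 0.75 in the 5 plates. For P2rx2 they were Etl4 (0.64), Npy1r, a receptor of neuropeptide Y (0.62), Qpct (0.62), Ass1 (0.62) and Gm5424 (0.61). P2rx4 was closest to Ctsl (0.58), Ggt7 (0.56), Lifr (0.55), Gaa (0.54) and Syt11 (0.54), of which Ctsl and Gaa encode lysosomal enzymes.

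P2ry1 ranked most like Ly6h (0.62), Onecut2 (0.53), Scn4b (0.52), Kitl (0.52) and Fgf12 (0.51), and P2ry2 most like Abcg2 (0.62), Cgnl1 (0.59), Sema5a (0.57), Spock3 (0.57) and Disp3 (0.57). P2rx6 was closest to the neurofilament genes Nefm (0.47) and Nefl (0.45), then Tmem25 (0.45), F2r (0.45) and Pcdhac1 (0.44). P2rx5 had the lowest values, with Jup (0.39), Tcf25 (0.37), Phactr2 (0.37), Hgf (0.36) and Ptgir (0.36). These values are descriptions over neurons that share plates and depth. P2rx7, P2ry12 and P2ry14 were expressed by under 5% of neurons and were not included.

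Of 27 other genes of purine signalling, 12 were at 10 TPM or more in over 20% of neurons. Panx1, a channel that releases ATP, was expressed by 94.2% and Panx2 by 22.5%. Of the genes listed here under nucleotide breakdown, the ectonucleotidase Entpd3 was expressed by 84.9% and Acpp, a phosphatase that produces adenosine, by 32.9%. Entpd2 was expressed by 27.1% and Enpp2 by 26.5%, and whether each listed gene acts mainly on nucleotides was not examined. Of the adenosine receptors, Adora1 was expressed by 87.4% and Adora2a by 33.2%. Adk, adenosine kinase, was expressed by 97.8%, the transporters Slc29a1 by 56.6% and Slc29a2 by 52.3%, and Ada, adenosine deaminase, by 28.3%. The receptors P2rx1, P2ry4, P2ry10, P2ry13 and Adora3 were at 10 TPM or more in no neuron.

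Between the segments 18 of these 27 genes could be compared. Of these, 1 was past the limit with the higher mean in LS, Adora2a (13.4 against 4.83 TPM), against 4.52% of all genes, and 2 with the lower mean, Acpp (10.1 against 44.6 TPM) and Ada (5.76 against 12.5 TPM), against 3.47%. Acpp was not past it among neurons with Mrgprd and Cbln2 below 10 TPM, where Adora2a and Enpp2 were higher and Ada and Alpl lower in LS. Among Gfra3 neurons the 1 gene past it was Entpd1, with the lower mean in LS. Among neurons without Gfra3, Adora1 and Adora2a were higher and Ada lower in LS. Beside the high P2rx3 of Mrgprd neurons, 5 of the 17 genes that could be compared were past the limit with the higher mean, against 5.65% of all genes. They were Acpp (311 against 12.2 TPM), Adk (1147 against 131 TPM), Entpd3 (133 against 44.0 TPM), Slc29a1 (46.2 against 18.7 TPM) and Nt5e, which makes adenosine from AMP (38.0 against 2.97 TPM). Adora2a was the 1 gene past it with the lower mean, at 1.16 against 9.43 TPM, against 15.7% of all genes.

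In Cbln2 neurons 18 genes could be compared, and Entpd3 (144 against 43.4 TPM), Adk (454 against 169 TPM), Acpp (61.0 against 26.0 TPM) and Enpp2 (20.9 against 8.56 TPM) were past the limit with the higher mean, against 6.0% of all genes. There, 6 genes were past it with the lower mean, against 24.7% of all genes, namely Adora1 (33.7 against 75.7 TPM), Entpd1, Entpd2, Nt5e, Alpl and Enpp3, of which Enpp3 was listed at 0 in the Cbln2 neurons. Within TL neurons Acpp and Adora1 were not past the limit. The genes past it there were Adora2a, Entpd3, Enpp2, Adk and Slc29a2 with the higher mean, and Entpd1, Entpd2, Nt5e, Alpl, Enpp1 and Enpp3 with the lower. In Gfra3 neurons 0 of the 18 genes that could be compared were past the limit with the higher mean, against 5.37% of all genes, and 3 with the lower, against 5.26%, which were Enpp2 (2.79 against 17.5 TPM), Slc29a2 (9.85 against 20.6 TPM) and Adora2a (6.08 against 12.7 TPM). Of these, none was past it within each segment. Within TL neurons the 1 gene past the limit was Slc29a2, with the lower mean. Within LS neurons Adora2a, Enpp2 and Slc29a1 were past it with the lower mean, and Adora2b and Nt5e with the higher. The share of all genes was not computed within a segment.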

How the data were processed

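Per the labels' processing notes, the authors used bcl2fastq 2.15.0.4, STAR 2.4.1 and featureCounts 1.4.4 on GRCm38.p3 with Ensembl annotation. The table deposited by the authors holds log2 values of x + 1 for 325 of the 399 labelled neurons, after their filter for low-quality cells. Before clustering the authors also removed neurons with satellite glia contamination, and since the sources used here do not name them, all 325 were kept. The other 74 neurons and 13 bath controls were not analysed here. As x summed to between 218865 and 11159067 per neuron, it was rescaled to 1000000 per neuron, which gives the TPM used here. Read counts were recovered from the deposited values as whole multiples of a factor per neuron over a gene length (relative tolerance 1e-09). With exonic lengths of GENCODE M21 65.3% of the values above 0 were whole, and the lengths of 8712 further genes were solved from their values, after which 0 genes were not whole. These reads give the depth and 2 alternatives.

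Groups were compared by ratios of mean TPM under the stated rule, with library plates as strata, in Python 3.11.15 with numpy 2.4.6, pandas 2.3.3 and scipy 1.17.1. No p-value was computed, as each segment was 1 sample. The rule was run on simulated reads drawn from a single mean profile for all neurons, without neuron subtypes or plate effects. That run cannot show how often the rule is met by genes in these data. The receptors, gene lists and thresholds were chosen with earlier results of these data known. Genes named are the receptors, sensory genes from a list, purine signalling genes past the limit or expressed by over 20% of neurons, and the 5 genes ranked most like a receptor, of which some results are not reported here. Alternatives were other thresholds, pseudocounts, scalings and cell filters, and each plate left out.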

Additional observations from a re-analysis of the deposited data

How the results depend on the processing

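The count of receptors past the limit between LS and TL was 5, and became 1 with a limit of 4-fold, 3 with a minimum mean of 10 TPM, 1, 2 and 1 with differences of mean log2(TPM + 1), log2(TPM + 0.1) and log2(TPM + 10), 3 under a filter on detected genes and mitochondrial share that left out 56 neurons, 3 without the 32 neurons of highest glial sum, and 3 when only neurons with Mrgprd and Cbln2 below 10 TPM were kept, an alternative chosen after seeing the data. P2rx2 was past the limit in each of these. For Gfra3 the count of 4 became 2 with log2(TPM + 1) and 0 with log2(TPM + 10). For Mrgprd the count of 4 became 2 with a minimum of 10 TPM, 7 when no common direction in the plates was asked and 1 with log2(TPM + 10). For Cbln2 the count of 6 became 3 with a minimum of 10 TPM and 2 with log2(TPM + 10). Leaving out 1 plate gave 4 to 5, 3 to 4, 4 to 5 and 6 to 7 receptors in the 4 comparisons. In Mrgprd neurons the log2 ratio of P2rx2 reversed to 0.44 on the deposited scale, and the cause was not tested.

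The share of neurons with both P2rx2 and P2rx3 was 28.0%, 10.2% in TL and 46.8% in LS at 10 TPM. It was 42.8, 21.6 and 65.2% at 1 TPM, 35.7, 16.2 and 56.3% at 5 TPM, and 17.2, 2.99 and 32.3% at 20 TPM, and it stayed within its interval under the 2 cell filters and without any 1 plate. Since TPM divides by length, P2rx4, with 7025 exonic bases, was at 10 reads per 1000000 or more in 86.5% of neurons, and P2ry14, with 11059 bases, in 4.92%. A single read of P2ry12 was worth 0.316 TPM in the median neuron that had one.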
